A study of Mus musculus with 12 samples.

Results

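A set of 10 genes that mark the bone and the fat lineage was followed while C2C12 cells left proliferation and formed muscle. C2C12 is an immortalised line of mouse myoblasts, the precursors of muscle fibres. The set is 10 of the 19259 genes named on the array. The bone genes are Runx2, Alpl, Spp1, Dmp1, Phex and Bglap, and the fat genes are Pparg, Cebpb, Plin4 and Lpl. The genes were chosen by name, and their 13 probes were found through the RefSeq accession of each probe. RNA came from proliferating cells in 10% fetal bovine serum, taken up to 80 to 90% confluence, and from cells kept for 2, 5 or 8 days in 2% horse serum. Each of these 4 stages had 3 independent experiments, each hybridised to a one-colour Agilent array, which gave 12 arrays. All stages come from this 1 line. The labels do not say whether the experiments were separate cultures, so the p-values reflect array-to-array spread, which may be technical.

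Myoblasts, osteoblasts and adipocytes are related mesenchymal cell types, and C2C12 cells are known to take on bone features when given bone morphogenetic proteins. Runx2 is the transcription factor that commits cells to the osteoblast lineage, and it acts on matrix and mineral genes such as those of osteopontin (Spp1) and osteocalcin (Bglap). Pparg is the nuclear receptor that drives fat cell differentiation. Cebpb acts before it in the fat programme, and lipid droplet and lipid uptake genes such as Plin4 and Lpl lie downstream of it in fat cells.

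The bases just before the annotated transcription start are shown for 6 of the genes, the measured genes whose window before the start held a RUNX site, C/EBP core, TATA box or CCAAT box, with 1 start shown per gene. The sequences are RefSeq's, on mouse assembly GRCm38.p6, each 170 bases long, 5′ to 3′ on the strand of the gene and ending at the base before the start, position -1. Capitals mark the RUNX site AACCACA, the C/EBP core TTGCNNAA, the TATA box TATAAA, the CCAAT box CCAAT and the E-box CAGCTG, on either strand.
Runx2 (chr17:44814628-44814797, minus strand): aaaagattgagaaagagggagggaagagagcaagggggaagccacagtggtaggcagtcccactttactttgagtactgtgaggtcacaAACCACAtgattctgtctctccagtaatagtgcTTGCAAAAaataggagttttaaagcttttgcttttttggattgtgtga
Spp1, start 1 (chr5:104434941-104435110, plus strand): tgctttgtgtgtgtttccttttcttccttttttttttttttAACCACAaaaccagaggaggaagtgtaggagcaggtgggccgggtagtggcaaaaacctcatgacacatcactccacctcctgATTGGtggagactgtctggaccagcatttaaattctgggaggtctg
Dmp1, start 2 (chr5:104202447-104202616, plus strand): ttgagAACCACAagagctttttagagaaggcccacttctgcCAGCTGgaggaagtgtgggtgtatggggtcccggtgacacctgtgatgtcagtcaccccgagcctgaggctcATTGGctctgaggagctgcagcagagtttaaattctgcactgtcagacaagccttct
Bglap (chr3:88384467-88384636, minus strand): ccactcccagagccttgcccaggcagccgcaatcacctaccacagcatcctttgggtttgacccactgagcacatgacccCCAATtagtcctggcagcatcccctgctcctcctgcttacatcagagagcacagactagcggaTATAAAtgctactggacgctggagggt
Pparg, start 3 (chr6:115421896-115422065, plus strand): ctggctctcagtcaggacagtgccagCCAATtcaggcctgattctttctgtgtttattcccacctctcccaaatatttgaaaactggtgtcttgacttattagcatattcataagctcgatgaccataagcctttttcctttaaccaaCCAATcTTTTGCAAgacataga
Plin4 (chr17:56109783-56109952, minus strand): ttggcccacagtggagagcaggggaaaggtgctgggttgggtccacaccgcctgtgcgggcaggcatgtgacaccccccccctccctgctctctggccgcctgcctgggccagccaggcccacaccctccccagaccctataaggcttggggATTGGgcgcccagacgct
The RUNX site begins at -81 in Runx2, at -129 in Spp1 and at -165 in Dmp1. The C/EBP core begins at -48 in Runx2 and at -16 in Pparg, and Bglap has its TATA box at -27. Over the 250 bases before the start, the table held 14 windows for 9 of the 10 genes. The RUNX site lay in 3 of these 14 windows (21.4%) and in 4.4% of all 32851 windows. The C/EBP core lay in 3 of 14 (21.4%, against 9.56% of all), the TATA box in 4 of 14 (28.6%, against 12.4%) and the CCAAT box in 7 of 14 (50%, against 33.8%). CAGCTG, which is also a match to the general E-box CANNTG, lay in 3 of 14 (21.4%, against 13%). CANNTG itself lay in 12 of 14 (85.7%, against 66.2%), and the PPAR element, a direct repeat spaced by a single base, in 0 of 14 (0.338% of all windows). Several windows belong to the same gene, the matches are letters only, and the array does not tell which start a transcript used.

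Detection and background differed between arrays, with the lowest and the highest detection both at day 5 (array 3 and array 1). Between 56.9% and 69.5% of spots per array were well above background, no spot was saturated (0), and arrays of a stage correlated with r of 0.985 to 0.994 over 22960 tested probes, against 0.929 to 0.985 between stages. Muscle genes were read as a check of the labels: 7 of 7 tested markers rose by day 5 (background 23.7% of tested probes higher), with a log2 change of 7.53 for Myog, a muscle transcription factor, and 8.38 for Myh3, the embryonic myosin heavy chain. At day 2, 5 rose and 1, Myod1, fell (18.3% and 12.3% of tested probes), and at day 8, 5 rose and 0 fell (25.3% and 29.6%). From day 5 to day 8, 0 rose and 2, Myod1 and Myog, fell (5.88% and 6.84%). Slides were shared between stages in part. Slide 1 held the 3 proliferation arrays and day 2 array 1, slide 2 held day 2 arrays 2 and 3 with day 5 arrays 1 and 2, and slide 3 held day 5 array 3 with the 3 day 8 arrays. No slide held proliferation together with day 5 or day 8, so in those comparisons slide and stage are joined only through the day 2 and day 5 arrays. Negative control probes had a median signal of 6.25, 5.39 and 2.42 at proliferation and of 1.39 to 3.53 on the later arrays.

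Of the 10 genes, 9 (all but Alpl) were well above background on all 12 arrays. Signals below are scanner units after the arrays were set to a common 75th percentile, and they are compared within a probe only. The scanner software flagged the spots of Cebpb and Lpl as non-uniform on 12 of 12 arrays and that of Bglap on 11. Pparg was flagged on 8 and Runx2 on 5, and Spp1, Dmp1, Phex and Plin4 on 0. For Pparg the flag ran with stage: 0 proliferation arrays, 2 of day 2, 3 of day 5 and 3 of day 8. Changes are log2 differences ± standard error from 1 limma fit over the 12 arrays (n = 3 per stage), with p-values adjusted by Benjamini-Hochberg over all 22960 tested probes and a threshold of 0.05. RNA came from whole cultures, so fewer cells of a type and less RNA per cell cannot be told apart.

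By day 2, 4 of the 9 measured genes had fallen (Phex, Pparg, Plin4 and Lpl) and 0 had risen, where 12.3% of all tested probes fell and 18.3% rose. Cebpb and Runx2 had adjusted p of 0.0831 and 0.136. By day 5, 5 of 9 were below proliferation (Spp1, Phex, Bglap, Pparg and Plin4) and 2 of 9 above it (Dmp1 and Lpl), against 23.9% of probes lower and 23.7% higher. At day 8 the counts were 3 lower (Bglap, Pparg and Plin4) and 1 higher (Dmp1), against 29.6% lower and 25.3% higher. The median change of the 9 genes was -0.42 at day 2, -0.52 at day 5 and -0.12 at day 8, and that of all tested probes was 0.07, -0.02 and -0.12. From day 2 to day 5, 2 of 9 rose (Dmp1 and Lpl; 14.3% of probes) and 3 fell (Spp1, Pparg and Plin4; 15.7%), and from day 5 to day 8 only Dmp1 fell (1 of 9; 6.84% of probes lower, 5.88% higher). Day 8 stood above day 2 for 2 of 9 (Runx2 and Lpl; 20.3% of probes) and below it for 2 (Pparg and Plin4; 28.9%). With slide as a block Lpl and Plin4 remained called (8.52% of all tested probes higher, 8.11% lower), and Pparg (-0.60, adjusted p = 0.167) and Runx2 were not. Across the 4 stages, the F test passed for 7 of 9 genes, where 65.8% of all tested probes passed. The exceptions were Spp1 (adjusted p = 0.0763) and Cebpb (adjusted p = 0.163). With slide as a block, 0 genes were called at day 2, 2 at day 5 and 2 at day 8, and Pparg and Plin4, both lower, made up the calls at the later stages. That fit called 9.74% of all tested probes higher and 5.72% lower at day 2, 12.6% and 10.2% at day 5, and 9.83% and 7.56% at day 8.

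**Figure D1:**
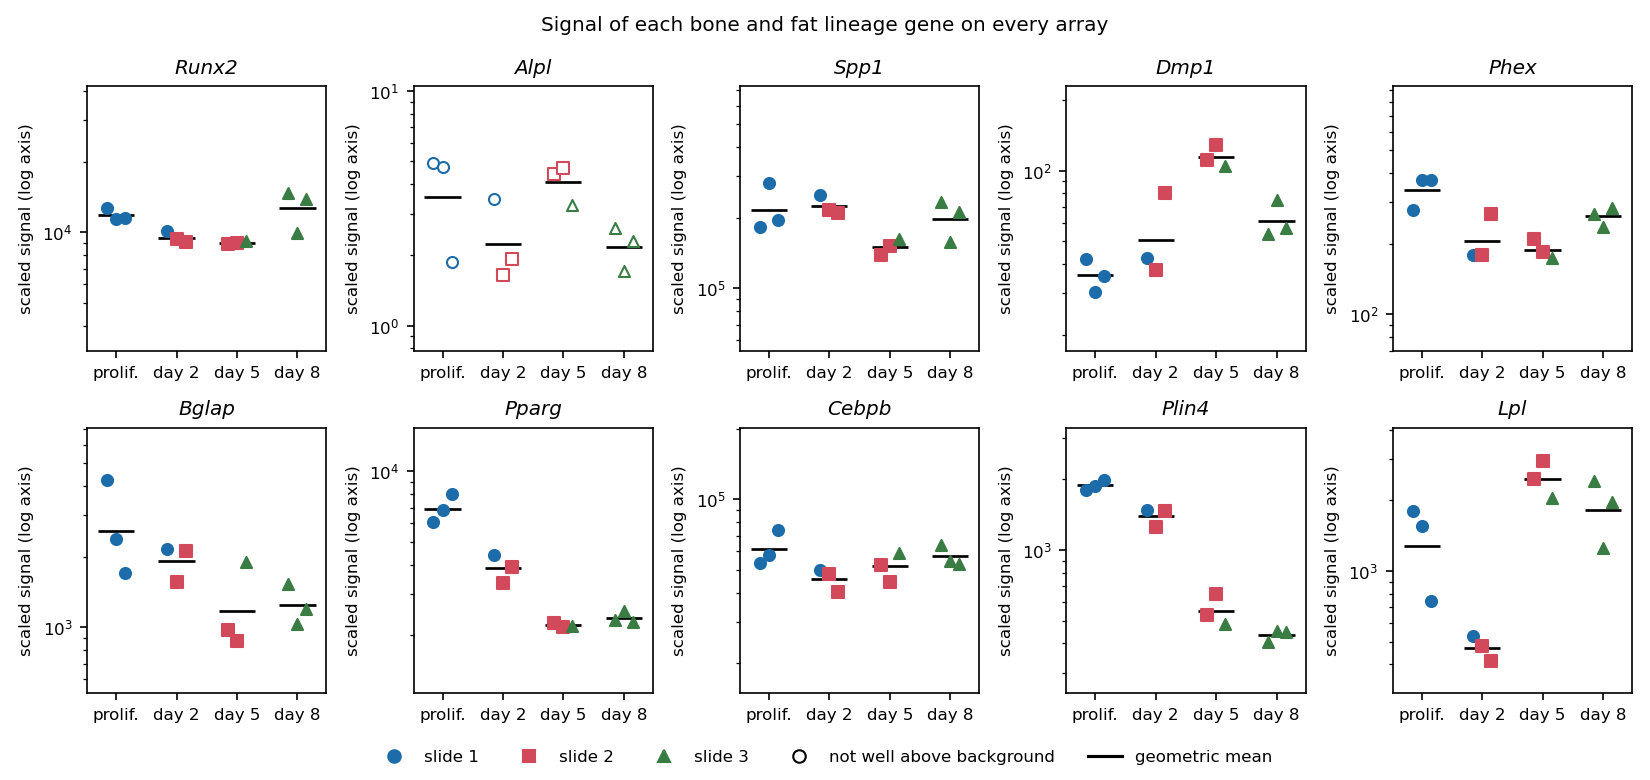
Scaled signal (scanner units, log axis) of each of the 10 genes on the 12 arrays, by stage. Points are single arrays, shape and colour give the slide, open points were not well above background, and bars are geometric means of 3 arrays. Pparg and Plin4 step down from proliferation to day 5, Lpl dips at day 2 and Dmp1 peaks at day 5.

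Runx2 was bright on every array, and no stage differed from proliferation past the test. The probe with the highest mean signal (NM_009820) read 12677, 11388 and 11518 on the proliferation arrays, 10087, 9377 and 9072 at day 2, 8890.2, 8995 and 9196 at day 5, and 14698, 9894 and 13898 at day 8. All arrays of days 2 and 5 lay below all proliferation arrays, whereas day 8 array 2 lay below the proliferation range and arrays 1 and 3 above it. The log2 change was -0.32 ± 0.15 at day 2 (adjusted p = 0.136), -0.39 ± 0.15 at day 5 (adjusted p = 0.0533) and 0.09 ± 0.15 at day 8 (adjusted p = 0.622), the last with a 95% interval of -0.24 to 0.43. Day 8 exceeded day 2 by 0.41 ± 0.15 (adjusted p = 0.0431), a call that was lost on leaving out any of 10 arrays, all but proliferation array 1 and day 8 array 2 (adjusted p 0.0522 to 0.155), and with slide as a block (adjusted p = 0.392). Without day 8 array 2, the falls at day 2 (adjusted p = 0.0491) and day 5 (adjusted p = 0.0133) and the rise from day 5 to day 8 (0.66, adjusted p = 0.0132) passed, and without day 8 array 1 the fall at day 5 did (adjusted p = 0.0481). They also passed after quantile normalization (adjusted p 0.0398, 0.0149 and 0.0289) and with the percentile taken over probes above background on all arrays (0.0474, 0.0183 and 0.0315), and the latter pair passed with the median over the Runx2 probes (0.032 and 0.0459). Under normexp the same 3 changes were smaller, at -0.13, -0.17 and 0.42 (adjusted p 0.566, 0.405 and 0.137). Over all alternatives the change against proliferation ran from -0.42 to 0.25 at day 2 and from -0.47 to 0.35 at day 5, so its sign was not kept.

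The 3 Runx2 probes followed the same course, with correlations of at least 0.956 over the 12 arrays and at most 0.26 log2 between them on any array. The probe of NM_001145920 passed the test at day 5 (-0.45 ± 0.13, adjusted p = 0.0171) and for the rise from day 5 to day 8 (0.53 ± 0.13, adjusted p = 0.0298), where the other probes had adjusted p of 0.0502 and 0.0533, and of 0.05 and 0.0601. Neither call of that probe passed with slide as a block (adjusted p 0.295 and 0.204). Within slide 3, the probe with the highest signal stood 0.46 higher at day 8 than on the single day 5 array. Of its family, Cbfb, the partner subunit that stabilises RUNX proteins on DNA, rose by 0.72 ± 0.11 by day 8 (adjusted p = 0.000331; 0.145 with slide as a block). Runx1, known from blood formation, had a log2 change of 0.94 ± 0.21 at day 5 (adjusted p = 0.00409; 0.0683 with slide as a block, 0.0903 under normexp background correction) and 0.52 at day 8 (adjusted p = 0.0583). Leaving out proliferation array 1 (0.71, adjusted p = 0.0191) or day 8 array 2 (0.73, adjusted p = 0.013) brought the latter past the threshold. Runx3 had -0.26 at day 8 (adjusted p = 0.315).

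**Figure D2:**
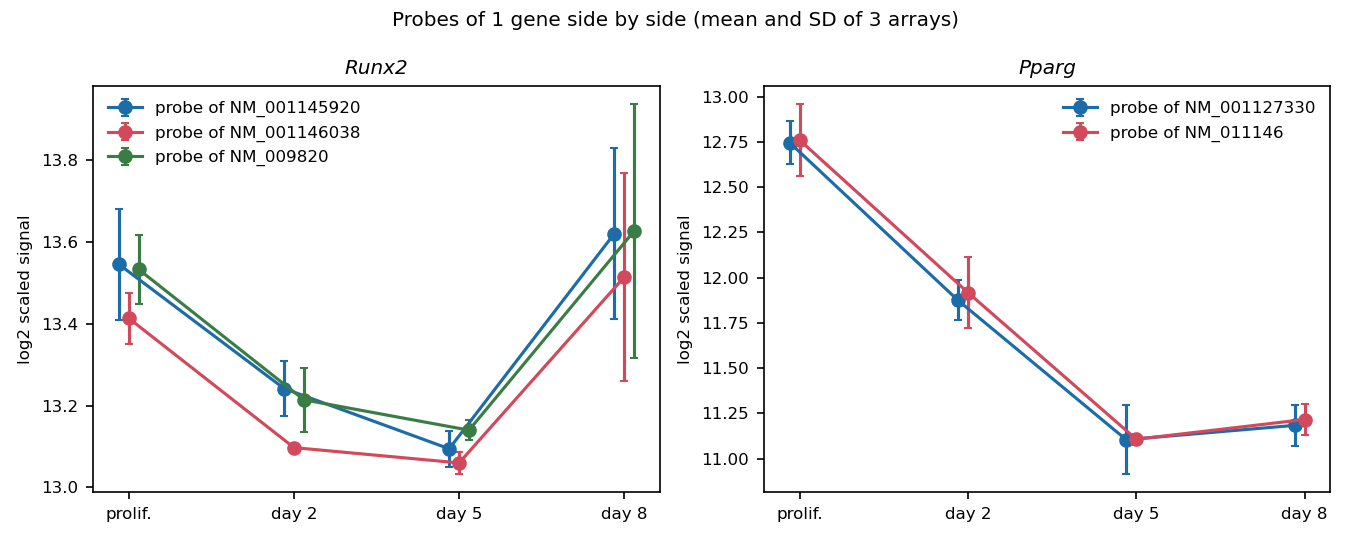
Log2 scaled signal of the 3 Runx2 probes (left) and the 2 Pparg probes (right) by stage. Points and bars are the mean and SD of 3 arrays. The probes of each gene run in parallel, with Runx2 lowest at day 5 and Pparg reaching its low level by day 5.

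Alpl, the tissue-nonspecific alkaline phosphatase that frees phosphate for mineral and is the usual stain for early osteoblasts, was not measured above background. Its single probe (NM_007431) read 4.95, 4.71 and 1.86 at proliferation, 3.45, 1.64 and 1.92 at day 2, 4.4, 4.71 and 3.25 at day 5, and 2.59, 1.7 and 2.28 at day 8, and it was well above background on 0 of 12 arrays. Proliferation overlapped every other stage and day 5 lay above day 8, but the values lie in the range of the negative probes, so no change is given. The other alkaline phosphatases were dim as well. Akp3 was above background on 2 of 12 arrays. Alpi, the intestinal form, was above it on 6 of 12, with 1 at proliferation and 0 at day 8, where its adjusted p was 0.0529. Alppl2, above background on all 12, had a log2 change of -0.92 ± 0.31 at day 8 (adjusted p = 0.0277), which turned to 0.18 under normexp background correction and to 0.50 with slide as a block, so no direction is given for it.

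Spp1 and Dmp1 code for acidic phosphoproteins of the SIBLING family, which bind mineral in bone matrix, and their genes lie on the same chromosome. They ran in opposite directions at day 5. Spp1 (osteopontin; NM_009263) read 182568, 281215 and 195709 at proliferation, 249133, 214807 and 208432 at day 2, 139099, 151031 and 162438 at day 5, and 233222, 157606 and 211061 at day 8. The 3 day 5 arrays lay below all arrays of proliferation and day 2, and day 8 overlapped every other stage. The log2 change was -0.52 ± 0.19 at day 5 (1.43-fold lower, adjusted p = 0.0477) and -0.12 ± 0.19 at day 8 (adjusted p = 0.611). The day 5 call was lost with slide as a block (-0.34, adjusted p = 0.573) and on leaving out proliferation array 2 (-0.33, adjusted p = 0.186), proliferation array 3, any day 2 array, any day 5 array or day 8 array 3 (adjusted p 0.0534 to 0.13). The fall from day 2 to day 5 (-0.57 ± 0.19, adjusted p = 0.048) was likewise lost with slide as a block (adjusted p = 0.162) and without proliferation array 3, any day 2 or day 5 array or day 8 array 3 (adjusted p 0.056 to 0.14).

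Dmp1 (dentin matrix protein 1; NM_016779), which marks osteocytes, was dim but above background on every array, and it rose to a peak at day 5. It read 42.3, 30.3 and 35.8 at proliferation, 42.4, 37.9 and 80.2 at day 2, 112, 129 and 105 at day 5, and 53.8, 74.8 and 57 at day 8. The day 5 arrays stood above all others, and the day 8 arrays above all proliferation arrays. Day 5 exceeded proliferation by 1.68 ± 0.26 (3.2-fold, adjusted p = 0.000364; 1.36, adjusted p = 0.0861 with slide as a block) and day 2 by 1.18 ± 0.26 (adjusted p = 0.00593; 1.12, adjusted p = 0.04 with slide as a block). Under normexp these values were 0.93 (adjusted p = 0.000737) and 0.49 (adjusted p = 0.0612), so the second call was lost. Day 8 was 0.77 ± 0.26 above proliferation (adjusted p = 0.0282; 0.587 with slide as a block) and 0.90 below day 5 (log2 change -0.90 ± 0.26, adjusted p = 0.0478). The day 8 rise rested on proliferation arrays 2 and 3 and day 8 array 2, without which its adjusted p was 0.0951, 0.061 and 0.0998, and the later fall was lost without any single array other than day 2 arrays 2 and 3 (adjusted p 0.0514 to 0.139). Within slides, day 5 was 1.12 above day 2 on slide 2, and day 8 was lower than day 5 on slide 3, with a log2 difference of -0.78. The remaining family members Ibsp (bone sialoprotein), Mepe and Dspp were above background on at most 2, 1 and 0 arrays.

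Phex (NM_011077), the membrane peptidase whose loss causes X-linked hypophosphataemia, fell by day 2 and was still lower at day 5. It read 278, 375 and 372 at proliferation, 179, 179 and 267 at day 2, 208, 185 and 174 at day 5, and 268, 235 and 284 at day 8. All arrays of days 2 and 5 lay below the lowest proliferation array, and day 8 overlapped proliferation. The log2 change was -0.73 ± 0.19 at day 2 (adjusted p = 0.0146), -0.84 ± 0.19 at day 5 (1.8-fold lower, adjusted p = 0.00349) and -0.37 ± 0.19 at day 8 (adjusted p = 0.116; -0.51, adjusted p = 0.0473 without proliferation array 1). With slide as a block the first 2 values were -0.92 (adjusted p = 0.0503) and -1.07 (adjusted p = 0.0602), and the day 2 call was also lost under normexp (-0.47, adjusted p = 0.0538) and without proliferation array 2, day 2 array 1 or day 2 array 2 (adjusted p 0.0537, 0.0517 and 0.0557). Of the related M13 peptidases, Ece2, an endothelin-converting enzyme, rose by 1.12 ± 0.22 at day 2 (adjusted p = 0.00353), 1.60 at day 5 (adjusted p = 0.000124) and 1.84 at day 8 (adjusted p = 3.81e-05), also with slide as a block (adjusted p 0.0198 to 0.0418). Mme (neprilysin) was tested only because it was above background on all 3 day 8 arrays, so no p-value is given for it. It was above background on 0 proliferation arrays and was at least 1.37-fold higher at day 8. Such a bound sets the measured stage against, on each array of the dim stage, the higher of the probe's own signal and the lowest signal of any probe well above background. Ece1 had 0.36 ± 0.18 at day 8 (adjusted p = 0.111; 0.50, adjusted p = 0.0447 without proliferation array 3).

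Bglap (osteocalcin; NM_007541), the late osteoblast product, was lower at days 5 and 8. It read 4234, 2369 and 1709 at proliferation, 2152, 1565 and 2108 at day 2, 973, 873 and 1901 at day 5, and 1536, 1038 and 1194 at day 8. Proliferation array 1 lay well above the other two, day 5 array 3 lay inside their range, and all day 8 arrays lay below that range. Against proliferation the log2 change was -0.42 ± 0.36 at day 2 (adjusted p = 0.398), -1.14 ± 0.36 at day 5 (2.2-fold lower, adjusted p = 0.0228) and -1.06 ± 0.36 at day 8 (adjusted p = 0.0278). These calls were lost without proliferation array 1, the highest (-0.78, adjusted p = 0.0873, and -0.70, adjusted p = 0.106), and with slide as a block (-1.24, adjusted p = 0.16, and -1.86, adjusted p = 0.117). The day 5 call was also lost without day 5 array 1 or 2 (adjusted p 0.0758 and 0.0842), and the day 8 call without day 8 array 2 or 3 (adjusted p 0.0879 and 0.0678). Bglap, Bglap2 and Bglap3 are near-identical neighbours, so their probes may share targets, and which of the genes gave the signal is uncertain. Bglap2 had -0.81 ± 0.19 at day 5 (adjusted p = 0.00583) and -0.35 at day 8 (adjusted p = 0.156). Bglap3 had -0.81 ± 0.17 (adjusted p = 0.0026) and -0.70 (adjusted p = 0.00543). None of these 3 calls passed with slide as a block (adjusted p 0.148 to 0.322).

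Pparg fell in 2 steps and then held a low level. Its brighter probe (NM_011146) read 6081, 6866 and 7984 at proliferation, 4401, 3349 and 3925 at day 2, 2258, 2165 and 2196 at day 5, and 2327, 2545 and 2273 at day 8. The ranges of the 4 stages did not overlap, and those of days 5 and 8 lay close together. Relative to proliferation it differed by -0.84 ± 0.14 at day 2 (1.79-fold lower, adjusted p = 0.00168; -0.46, adjusted p = 0.0296 under normexp), -1.65 ± 0.14 at day 5 (3.14-fold lower, adjusted p = 4.08e-06) and -1.54 ± 0.14 at day 8 (2.91-fold lower, adjusted p = 5.7e-06), on the log2 scale. The second step, day 5 against day 2, was -0.81 ± 0.14 (adjusted p = 0.0013), and day 8 differed from day 5 by 0.11 ± 0.14 (adjusted p = 0.645; 95% interval -0.20 to 0.42).

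The second Pparg probe (NM_001127330) gave -0.87, -1.64 and -1.56 at days 2, 5 and 8, and the 2 probes correlated with r = 0.977 over the 12 arrays. With slide as a block the brighter probe had -0.66 (adjusted p = 0.0588), -1.37 (adjusted p = 0.0064) and -1.25 (adjusted p = 0.0328). The second probe then had -0.93 (adjusted p = 0.0146), -1.63 (adjusted p = 0.00207) and -1.37 (adjusted p = 0.0192). For the brighter probe, the falls from proliferation to days 5 and 8 passed in all 19 alternatives that could be run. The settings without non-uniform spots could not be run for it, because its spots were flagged on every array of days 5 and 8. Within slides, day 2 differed from proliferation by -0.66 on slide 1 and day 5 from day 2 by -0.71 on slide 2. Of the sister receptors, Ppard, which is widely expressed, had -0.23 ± 0.19 at day 8 (adjusted p = 0.328). Ppara, the receptor of fatty acid oxidation in liver and muscle, had -0.89 ± 0.20 at day 5 (adjusted p = 0.00391; 0.315 with slide as a block, and -0.18, adjusted p = 0.4, under normexp) and -0.44 at day 8 (adjusted p = 0.0869; -0.64, adjusted p = 0.0161 without proliferation array 3).

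Cebpb (NM_009883), the early fat transcription factor that is also induced by stress and cytokines, showed no change past the test. It read 53466, 58131 and 74086 at proliferation, 49773, 48101 and 40484 at day 2, 52539, 44436 and 59338 at day 5, and 63979.7, 54729 and 53257 at day 8. The day 2 arrays lay below all proliferation arrays, day 5 overlapped both, and day 8 overlapped proliferation. The log2 change was -0.42 ± 0.17 at day 2 (adjusted p = 0.0831; 0.0133 after quantile normalization), -0.24 ± 0.17 at day 5 (adjusted p = 0.256) and -0.10 ± 0.17 at day 8 (adjusted p = 0.63; 95% interval -0.47 to 0.27). Among its family, Cebpg had -0.45 ± 0.14 at day 2 (adjusted p = 0.0303), a call that ended on leaving out any of 4 arrays, numbers 1 and 2 of proliferation and 1 and 3 of day 2 (adjusted p 0.0728 to 0.104), under normexp (-0.11, adjusted p = 0.515) and with slide as a block (adjusted p = 0.161), and turned to 0.15 with the percentile over uniform spots. Cebpg rose by 0.61 ± 0.14 by day 5 (adjusted p = 0.00385) and 1.20 ± 0.14 by day 8 (adjusted p = 3.18e-05), with adjusted p of 0.193 and 0.0601 with slide as a block. Cebpa, the partner of Pparg in mature fat cells, had -0.09 ± 0.30 at day 8 (adjusted p = 0.812), and Ddit3, a stress-induced member, -0.14 ± 0.34 (adjusted p = 0.742). Cebpd and Cebpe were above background on 5 and 3 of 12 arrays and were not tested.

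Plin4 (NM_020568), a perilipin that coats small lipid droplets in fat and muscle cells, had the largest fall of the 9 measured genes at days 5 and 8. It read 1809, 1865 and 1995 at proliferation, 1479, 1258 and 1469 at day 2, 528, 649 and 484 at day 5, and 406, 451 and 448 at day 8. Each stage lay wholly below the one before it. Its log2 change was -0.43 ± 0.14 at day 2 (adjusted p = 0.0354), -1.78 ± 0.14 at day 5 (3.43-fold lower, adjusted p = 1.89e-06) and -2.12 ± 0.14 at day 8 (4.35-fold lower, adjusted p = 4.06e-07). The step from day 2 to day 5 was -1.35 ± 0.14 (adjusted p = 3e-05; -1.21 within slide 2), and that from day 5 to day 8 was -0.34 ± 0.14 (adjusted p = 0.13). Leaving out any proliferation array, any day 2 array or day 5 array 1 ended the day 2 call (adjusted p 0.0507 to 0.118), as did slide as a block (adjusted p = 0.241). The day 5 and day 8 falls passed in all 21 alternatives, at -1.57 (adjusted p = 0.00256) and -1.72 (adjusted p = 0.00683) with slide as a block.

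Of the other perilipins, Plin2, which coats droplets in most tissues, fell by 0.95 on the log2 scale at day 5 (adjusted p = 0.000477) and by 1.25 at day 8 (adjusted p = 5.93e-05). Both falls passed with slide as a block (-1.01, adjusted p = 0.0382, and -1.50, adjusted p = 0.0237). Plin3, a broadly expressed droplet protein, was higher at day 2 (0.72 ± 0.15, adjusted p = 0.00504; 0.0305 with slide as a block) and had 0.28 ± 0.15 at day 8 (adjusted p = 0.129). Plin5, found in tissues that burn fat, was above background on 2 proliferation arrays and 0 day 8 arrays, and was lower at day 8 (adjusted p = 0.00026). No size is given for this fall, because not every proliferation array was above background. The log2 difference of Plin5 turned to 0.01 under normexp background correction, and with slide as a block its adjusted p was 0.137. Plin1, the perilipin of white fat cells, was above background on 0 of 12 arrays.

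Lpl (NM_008509), the lipase that frees fatty acids from circulating triglyceride, dipped at day 2 and then climbed. It read 1809.5, 1559 and 745 at proliferation, 527, 482 and 415 at day 2, 2472, 2955 and 2046 at day 5, and 2422, 1253 and 1973 at day 8. The day 2 arrays lay below all others and the day 5 arrays above all proliferation arrays, while day 8 overlapped proliferation and day 5. The log2 change was -1.44 ± 0.33 at day 2 (2.71-fold lower, adjusted p = 0.0086), 0.94 ± 0.33 at day 5 (1.92-fold higher, adjusted p = 0.0365) and 0.50 ± 0.33 at day 8 (adjusted p = 0.221). Day 5 exceeded day 2 by 2.38 ± 0.33 (5.22-fold, adjusted p = 0.00028), a rise that passed in all 19 alternatives that could be run, with 2.60 within slide 2 (adjusted p = 0.00215 with slide as a block).

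The earlier Lpl fall had -1.28 within slide 1 and an adjusted p of 0.105 with slide as a block. The day 5 rise over proliferation was lost with slide as a block (1.31, adjusted p = 0.182), without proliferation array 3, the lowest of its stage (0.55, adjusted p = 0.124), and without day 5 array 1 or 2 (adjusted p 0.0787 and 0.11), and it was 0.50 (adjusted p = 0.3) under normexp. The related Lipg, endothelial lipase, was higher at day 2, with a log2 change of 1.39 ± 0.12 (2.63-fold higher, adjusted p = 3.75e-05; 0.00323 with slide as a block), and had 0.22 ± 0.12 at day 8 (adjusted p = 0.139). At day 5 it had -0.40 ± 0.12 (adjusted p = 0.0193), a call that ended on leaving out proliferation array 3 or day 5 array 1 (adjusted p = 0.0696 and 0.0576), under normexp (0.207) and with slide as a block (0.158), and turned to 0.39 with the percentile over uniform spots. Lipe, hormone-sensitive lipase, which acts on stored fat, was higher at day 2 (1.20 ± 0.13, adjusted p = 0.000111), day 5 (0.96, adjusted p = 9.42e-05) and day 8 (1.21, adjusted p = 1.47e-05), also with slide as a block (adjusted p 0.00687 to 0.0467). Pnpla2 and Lipc were above background on at most 2 and 4 arrays and were not tested.

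**Figure D3:**
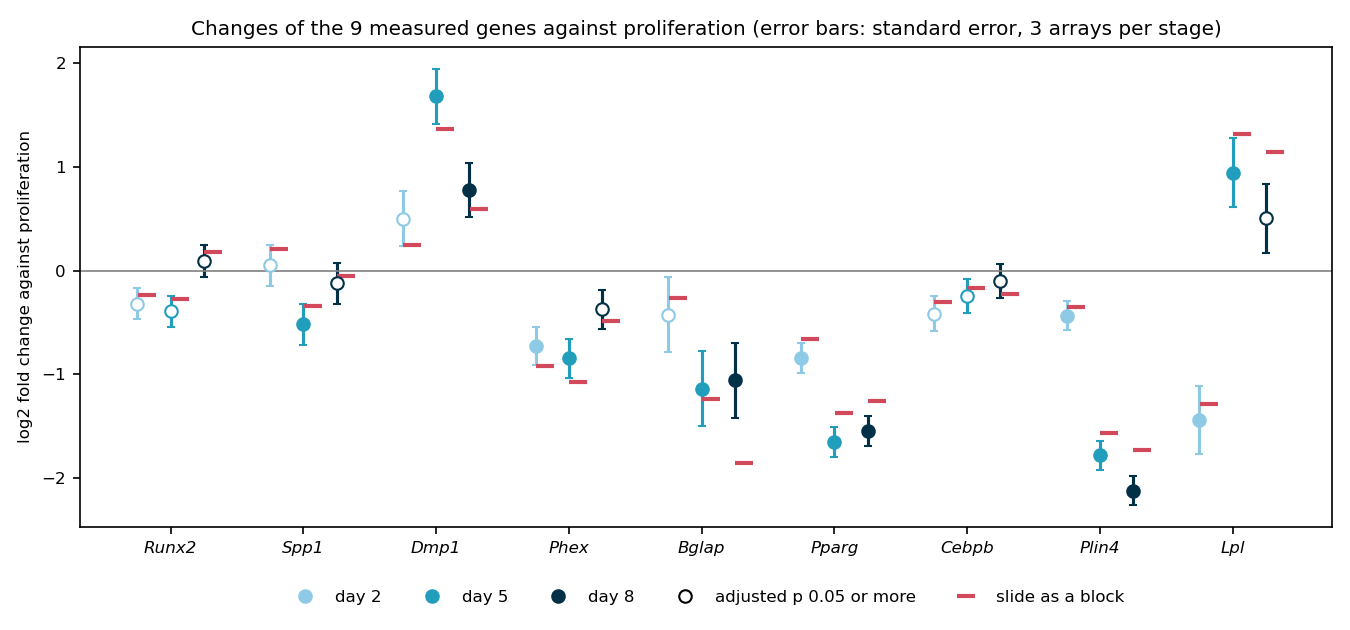
Log2 change of the 9 measured genes against proliferation at days 2, 5 and 8 (vertical axis), with standard errors of the limma fit. Filled points passed the adjusted p of 0.05, open points did not, and red dashes give the value with slide as a block. Pparg and Plin4 lie below 0 at each time, and Lpl changes sign between day 2 (-1.44) and day 5 (0.94).

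Across the 12 arrays, Pparg and Plin4 had similar courses (Pearson r = 0.927), and Dmp1 ran against Spp1 (r = -0.794) and Pparg (r = -0.771). These coefficients describe arrays that share slides, scaling and 4 stages. Among 13634 genes, those with the course most like Plin4 were Dut, Kif4 and Donson (r = 0.994, 0.992 and 0.991), and those most like Pparg were Havcr2, Lce1i and Cd24a (r = 0.989, 0.989 and 0.984). Bglap was nearest to Dlk1 (r = 0.91), Dmp1 to Septin4 (r = 0.945), Lpl to Spin4 (r = 0.938), Phex to Rars2 (r = 0.93) and Runx2 to Ascc3 (r = 0.948).

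Beyond the 10 genes, 30 further genes of bone and mineral and 40 of fat and lipid storage were read as lists. Probes of 24 of the 30 bone genes and 24 of the 40 fat genes were well above background on all 12 arrays. Defining products of fat cells were at or near background: Adipoq (adiponectin), Lep (leptin), Retn, Cfd, Cidec and Plin1 on 0 arrays, Fabp4 on 1 and Cd36 on 2. Prdm16, the regulator of brown and beige fat, was above background on 0 arrays. On the bone side, Fgf23 was above background on 0 arrays, and Dlx5, Mepe and Tnfsf11 on 1.

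**Figure D4:**
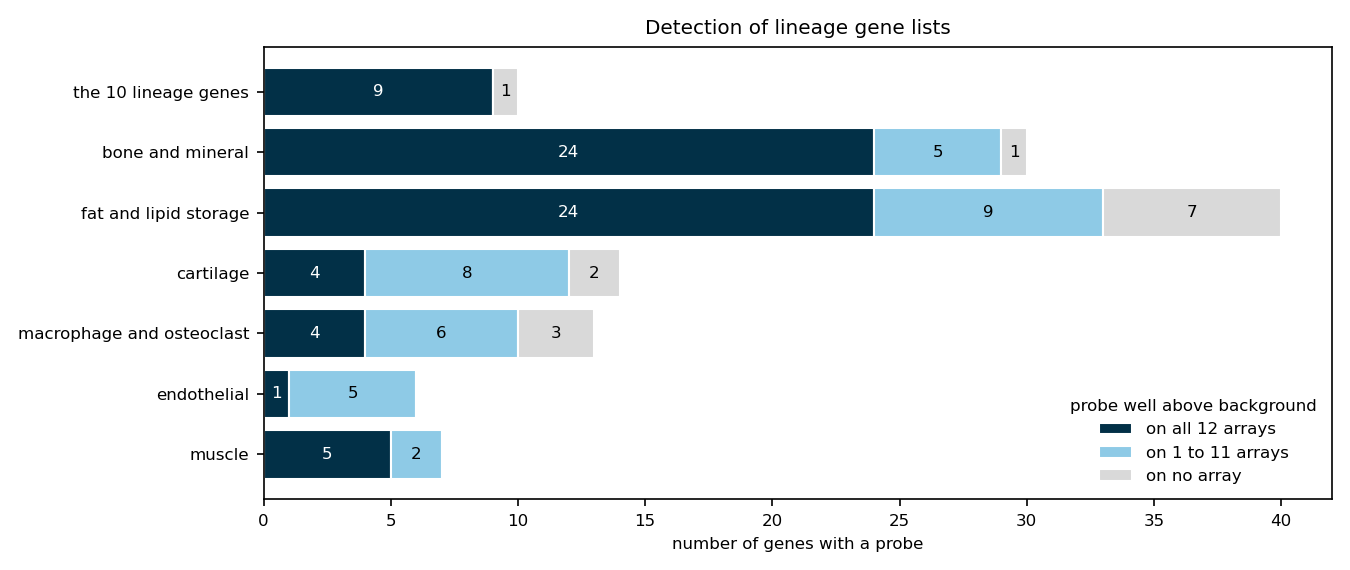
Number of genes in each list (horizontal axis) whose probe was well above background on all 12 arrays, on 1 to 11, or on none. The fat list has the most genes on no array (7 of 40), and 9 of the 10 lineage genes were above background on every array.

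Bone and mineral genes moved both ways. Of 25 measured, 6 rose and 4 fell at day 2 (18.3% and 12.3% of all tested probes), 10 rose and 6 fell at day 5 (23.7% and 23.9%), and 12 rose and 7 fell at day 8 (25.3% and 29.6%). The median log2 change at day 8 was 0.25, beside -0.12 over all tested probes. At day 8, 8 rose and 2 fell with slide as a block, where 9.83% of all tested probes rose and 7.56% fell. The largest rises at day 8 were in Ogn (osteoglycin, a small matrix proteoglycan; 4.44 ± 0.29, 21.8-fold, adjusted p = 4.46e-07), Enpp1, which makes the mineral inhibitor pyrophosphate (3.25 ± 0.19, adjusted p = 1.64e-07), and Omd (osteomodulin; 2.86 ± 0.25, adjusted p = 3.64e-06). The largest falls were in Dlx3, a homeobox factor of bone and skin (-2.45 ± 0.28, adjusted p = 3.24e-05), Col1a1, the main collagen chain of bone (-1.79 ± 0.47, adjusted p = 0.00744), and the phosphate transporter Slc20a1 (-1.52 ± 0.17, adjusted p = 2.41e-05). With slide as a block the 3 rises and Slc20a1 passed, while Dlx3 (adjusted p = 0.161) and Col1a1 (adjusted p = 0.724) did not. Sp7 (osterix), the factor that acts after Runx2, named here after its values were seen, had -0.48 at day 8 (adjusted p = 0.324), which turned to 0.42 (adjusted p = 0.61) with slide as a block.

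Fat and lipid storage genes also split. Of 26 measured, 11 rose and 1 fell at day 2 (18.3% and 12.3% of all tested probes), 13 rose and 6 fell at day 5 (23.7% and 23.9%), and 13 rose and 8 fell at day 8 (25.3% and 29.6%), with a median of 0.40 at day 8. At day 8, 7 rose and 2 fell with slide as a block (9.83% and 7.56% of all tested probes). Among genes above background at both stages, the largest rises were in Klf15, a factor of muscle and fat metabolism (3.90 ± 0.24, 15-fold, adjusted p = 2.48e-07), and Mgll, monoglyceride lipase (2.77 ± 0.17, adjusted p = 2.78e-07). Slc2a4, the insulin-responsive glucose transporter of muscle and fat, has only a bound and is not ranked: it was above background on 0 proliferation arrays and was at least 1.85-fold higher at day 8. No p-value is given for Slc2a4, because it was tested only through its 3 day 8 arrays. The largest falls among genes above background at both stages were in Angptl4, an inhibitor of Lpl (-3.42 ± 0.32, 10.7-fold lower, adjusted p = 5.82e-06), and Ebf1, an early adipocyte factor (-1.62 ± 0.25, adjusted p = 0.00028). Plin5 is not ranked, because it was above background on 0 day 8 arrays. Ebf1 did not pass with slide as a block (adjusted p = 0.417).

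Markers of other cell types were read beside these lists. Of 6 measured cartilage genes of 14 listed, 1 rose and 5 fell at day 8, where 25.3% of all tested probes rose and 29.6% fell. Col11a1, a fibrillar collagen also made by muscle cells, rose by 3.09 ± 0.20 (adjusted p = 4.36e-07), and Col10a1, the collagen of hypertrophic cartilage, fell by 3.26 on the log2 scale (adjusted p = 4.81e-05), as did Matn3 by 1.97 (adjusted p = 1.21e-06). Col2a1, counted among the 5, had -1.35, which turned to 0.11 under normexp background correction. It was tested only because it was above background on all 3 proliferation arrays, against 2 at day 8, so no p-value is given for it. Of 13 macrophage and osteoclast genes with a probe, 4 were above background on all arrays, and the defining genes Adgre1, Itgam and Dcstamp on 0. In that list, 2 of 7 measured genes rose at day 8 (Aif1, 1.55, adjusted p = 0.000913, and Csf1r, 1.28, adjusted p = 8.08e-05). Another 3 fell (Cd14, -1.05, adjusted p = 0.000757, Lyz2, -0.79, adjusted p = 0.000717, and Tyrobp, at least 5.53-fold lower, adjusted p = 0.000734). Aif1 was above background on only 1 proliferation array, so the size of its rise is uncertain, and it ran from 0.79 to 2.54 over the alternatives. With slide as a block 1 of the 7 passed, Aif1 (adjusted p = 0.0208), and Lyz2 and Tyrobp did not pass under normexp (adjusted p 0.426 and 0.324). Of 4 measured endothelial genes, 1 rose and 2 fell at day 8. For both lists the shares of all tested probes were again 25.3% and 29.6%. The part of such cells in the results above was not tested.

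**Figure D5:**
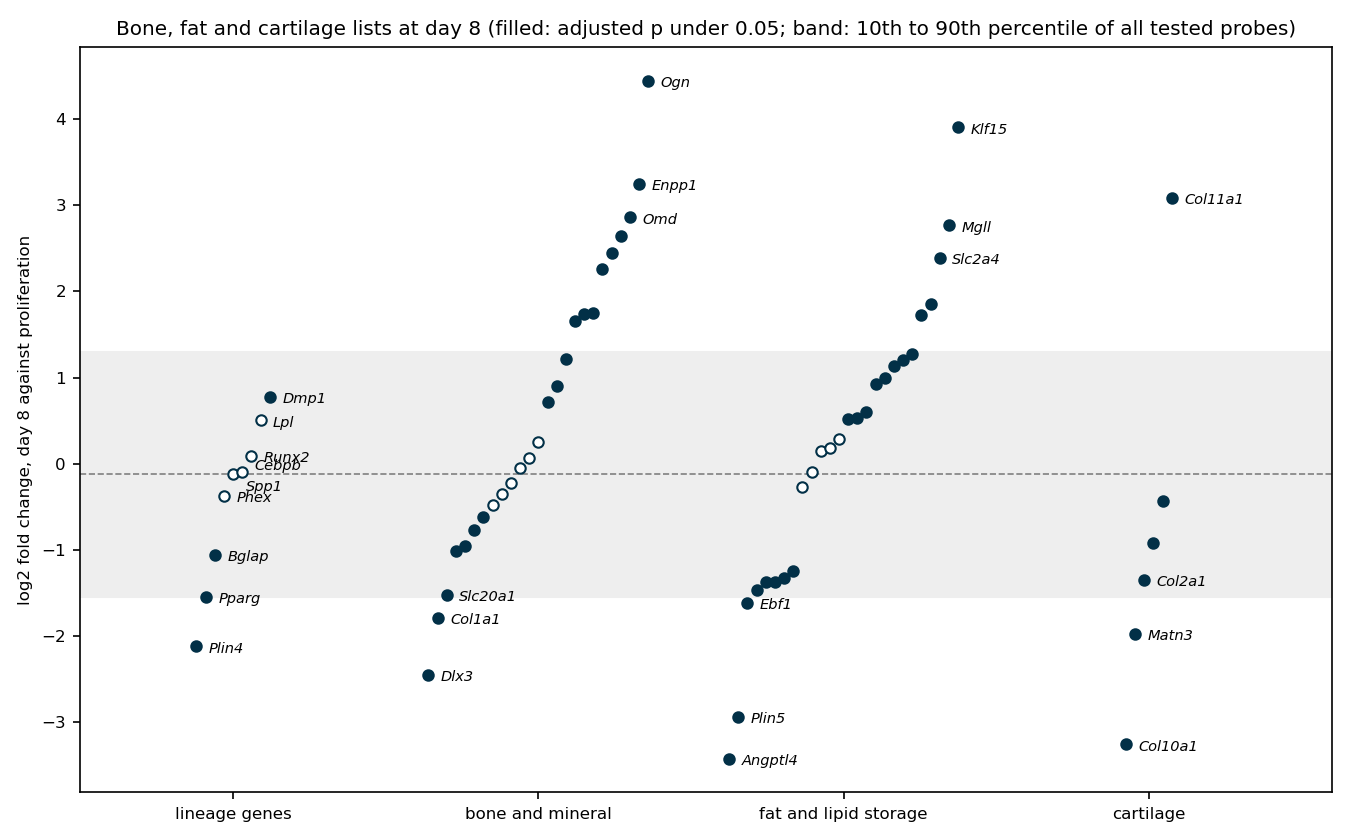
Log2 change at day 8 against proliferation (vertical axis) of the 9 lineage genes and of the measured bone, fat and cartilage genes, ordered within each list. Filled points passed the adjusted p of 0.05, the dashed line is the median of all tested probes (-0.12) and the band runs from their 10th to their 90th percentile (-1.55 to 1.29). Plin4 (-2.12) is the lineage gene that lies farthest below the band, and Ogn (4.44) stands highest. Plin5 at day 8 and Slc2a4 at proliferation were not above background on any array.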

How the data were processed

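Each of the 12 arrays was deposited as scanner output. The submitters' processing notes name Agilent Feature Extraction 10.5.1.1, and the processed signal is an intensity that was already background-subtracted, per the file headers. The array design names build mm9, and each probe's RefSeq accession was matched to its symbol in a gene list of GRCm38.p6. Log2 of the deposited signal was taken per spot, population outlier spots were left out, spots of a probe were averaged, and each array's 75th percentile was subtracted. Scaled signals put that percentile at its geometric mean over the arrays. Spots flagged as non-uniform were kept. Only probes flagged well above background on every array (3 of 3) of some stage were tested.

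Stage means were fitted over all 12 arrays with limma 3.58.1 (R 4.3.3, jsonlite 2.0.0, and version 1.17.8 of data.table), without covariates. Day 8 against day 2 was read from the same fit and added after the other comparisons were set. The script was tested on simulated data. Figures were drawn with matplotlib 3.10.9 (Python 3.11.15, pandas 2.3.3). Alternatives were 12 fits that left out 1 array and 9 other settings, of which normexp (offset 50) used the median signal because a mean signal column was not used here. One setting, with the percentile over the uniform spots kept, was chosen after seeing the data. Precision is limited by the number of arrays.

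The members and lists were chosen with earlier results of these data known. The genes named by rule are the 10 members, their paralogues, up to 3 genes per list with the largest rise and fall at day 8 among those past the threshold whose stages did not overlap, and the genes most correlated with each member past the F test. Further list genes were named because they were at or near background, a choice made from their values. Muscle markers were named as a check of the labels. Where a gene had several tested probes, the brightest on average stands for it.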

Additional observations from a re-analysis of the deposited data

How the results depend on the processing

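Counts of the 9 genes called moved with the setting as follows. Slide as a block called 0 at day 2 (4 before), 2 at day 5 (7), 2 at day 8 (4), 0 from day 5 to day 8 (1) and 3 by the F test (7). Leaving out non-uniform spots, which left 5 genes measured, called 1, 3 and 2 at days 2, 5 and 8, 2 from day 2 to day 5 (5), 0 from day 5 to day 8 and 3 by the F test, and with the percentile over the spots kept 1, 2, 2, 2, 0 and 2. Without a filter on dim probes, 2 were called at day 8 and 0 from day 5 to day 8. Normexp called 3 from day 2 to day 5 and 0 from day 5 to day 8, and quantile normalization and the median over a gene's probes each called 2 there. Some settings called more: 6 at day 2 both under quantile normalization and where only probes detected on every array set the percentile, which added Runx2 and Cebpb, 8 at day 5 under quantile normalization and the median over a gene's probes, and 9 by the F test under quantile normalization. From day 2 to day 8 (4), slide as a block called 2, leaving out non-uniform spots 1 with either percentile, and quantile normalization 5. Leaving out 1 array gave 2 to 5 calls at day 2, 4 to 8 at day 5, 2 to 4 at day 8, 4 to 5 from day 2 to day 5, 0 to 1 from day 5 to day 8, and 5 to 7 by the F test. Over all tested probes the counts ran from 3172 to 8086 at day 2 (7029 as reported), 5217 to 11354 at day 5 (10917), 3993 to 13007 at day 8 (12597), 2082 to 7190 from day 2 to day 5 (6909) and 280 to 3437 from day 5 to day 8 (2920), lowest with slide as a block or without non-uniform spots. By the F test they ran from 7249, with slide as a block, to 15427 (15104).

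Replicate numbers were shared across stages. Deviations of same-numbered arrays correlated with r of -0.155 to 0.243 in 18 pairs (median 0.0053), against -0.264 to 0.222 in 36 other pairs (median -0.0138). With 3 arrays per stage and slides shared in part, these overlapping ranges cannot tell whether equal numbers mark a shared experiment. With a replicate block the counts were 3, 6, 4, 4 and 0, and 7 by the F test.

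Sign changes are listed here only where the reported or the alternative fit passed the threshold. Others, such as those of Runx2 at days 2 and 5 and Phex at day 8, are left out. Directions reversed for Spp1 at day 5 (0.27) and Plin4 (0.17) and Cebpg (0.15) at day 2 and Lipg at day 5 (0.39) with the percentile over the spots kept, a scaling that moved the median of all probes to 0.73, 0.80 and 0.51 at days 2, 5 and 8. Under normexp they reversed for Plin5 (0.0148), Col2a1 (0.11), Alpi (0.41) and Alppl2 (0.18) at day 8 and Ece1 at day 5 (-0.0265), and with slide as a block for Alppl2 (0.50). Pparg and Plin4 kept their calls at days 5 and 8 in all settings run, and so did the rise of Lpl from day 2 to day 5. The settings without non-uniform spots could not be run for Pparg or Lpl. Normexp moved the median of all probes to 0.20, 0.14 and 0.15 at days 2, 5 and 8. The cause of these changes was not tested.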
